A study of Mus musculus with 5 samples.

Results

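Iron-sulfur cluster assembly was examined through 9 genes, Nfs1, Lyrm4, Iscu, Hscb, Glrx5, Isca1, Isca2, Nfu1 and Bola3. The genes were chosen by function, with earlier results of these data known. Every array probe whose platform annotation gives one of these symbols was taken. They have 15 probes among the 45281 on the array, and 9 of its 19057 gene symbols. The samples were erythroblasts, the nucleated precursors of red cells, from the marrow of C57BL/6J mice, and were labelled by genotype as Flvcr deleted (2 arrays) or wild type (3 arrays). Flvcr, now Flvcr1, encodes a heme exporter of the plasma membrane, and the single comparison asks which transcripts differ once it is deleted. The sources used here do not say how or in which cells the gene was deleted, how old the mice were or whether animals were pooled. Nothing in the labels ties the replicates to separate animals, so the p-values reflect the spread among these arrays alone, which may be technical.

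Iron-sulfur clusters are built in mitochondria. The cysteine desulfurase NFS1, held stable by its small partner LYRM4, releases sulfur from cysteine onto the scaffold ISCU, and the co-chaperone HSCB with the chaperone HSPA9 passes the new cluster to the glutaredoxin GLRX5. ISCA1, ISCA2 and IBA57 then form the larger clusters with 4 iron atoms, and NFU1 and BOLA3 bring them to lipoic acid synthase and to respiratory complexes. In red cell precursors the pathway meets heme synthesis: ferrochelatase, which inserts iron into protoporphyrin, carries a cluster, and a cluster on the iron regulatory protein IRP1 keeps it off the mRNA of the erythroid enzyme ALAS2. Inherited defects of human GLRX5, HSPA9 and HSCB cause sideroblastic anaemia.

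The promoter sequences of the 4 members that passed the test, and of Isca2, are shown because the title of the series names GATA1, and a GATA site or another shared element in them is the sequence question these genes raise. Each window runs from 250 bases before to 50 after an annotated start (RefSeq, GRCm38.p6), 5′ to 3′ on the strand of the gene. Capitals mark, on either strand, the CCAAT box and the GATA sites AGATAA and, with another first base, TGATAA. RefSeq windows were at hand for 7 of the 9 members. For Bola3, which has 3 annotated starts, the most downstream window is shown.
Isca1 (chr13:59769740-59770039, - strand): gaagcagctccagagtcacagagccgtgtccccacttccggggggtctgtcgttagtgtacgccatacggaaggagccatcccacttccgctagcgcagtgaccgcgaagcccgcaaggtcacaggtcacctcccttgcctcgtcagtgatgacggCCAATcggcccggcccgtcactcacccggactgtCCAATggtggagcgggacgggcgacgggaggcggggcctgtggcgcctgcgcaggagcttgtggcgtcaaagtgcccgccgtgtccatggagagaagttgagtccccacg
Glrx5 (chr12:105032368-105032667, + strand): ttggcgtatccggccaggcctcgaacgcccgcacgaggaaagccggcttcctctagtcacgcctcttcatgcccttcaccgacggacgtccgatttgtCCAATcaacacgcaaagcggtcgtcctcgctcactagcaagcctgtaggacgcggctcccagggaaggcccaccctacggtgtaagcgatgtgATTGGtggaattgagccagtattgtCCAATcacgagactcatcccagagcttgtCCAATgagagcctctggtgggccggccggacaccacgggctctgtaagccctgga
Bola3 (chr6:83349226-83349525, + strand): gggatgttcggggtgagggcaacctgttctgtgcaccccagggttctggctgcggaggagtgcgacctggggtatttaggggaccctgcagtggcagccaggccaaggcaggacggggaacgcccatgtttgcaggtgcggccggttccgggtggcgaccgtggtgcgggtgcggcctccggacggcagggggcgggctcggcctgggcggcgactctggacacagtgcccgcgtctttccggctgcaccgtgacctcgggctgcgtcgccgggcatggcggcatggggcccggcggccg
Nfu1 (chr6:87009586-87009885, + strand): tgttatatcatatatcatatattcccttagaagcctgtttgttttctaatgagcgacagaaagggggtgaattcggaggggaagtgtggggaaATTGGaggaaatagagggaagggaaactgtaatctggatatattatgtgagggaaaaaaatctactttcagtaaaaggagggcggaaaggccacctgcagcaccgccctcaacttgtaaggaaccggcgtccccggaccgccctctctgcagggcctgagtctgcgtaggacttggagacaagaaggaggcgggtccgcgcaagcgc
Isca2 (chr12:84773020-84773319, + strand): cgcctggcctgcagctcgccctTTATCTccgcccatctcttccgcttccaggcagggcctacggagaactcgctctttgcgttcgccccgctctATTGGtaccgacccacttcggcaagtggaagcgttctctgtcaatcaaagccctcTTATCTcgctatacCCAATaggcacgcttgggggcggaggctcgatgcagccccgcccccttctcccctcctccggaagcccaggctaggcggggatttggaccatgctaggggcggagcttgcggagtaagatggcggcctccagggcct
AGATAA occurred in 11.2% and TGATAA in 9.05% of all 32851 promoter windows (6.93% and 5.16% of the 10454 windows of tested genes), and among the 7 members only Isca2 held either, with AGATAA at 2 places. CCAAT, found in 37.4% of all windows and 38.4% of those of tested genes, occurred 4 times in Glrx5, 2 times each in Isca1 and Isca2 and 1 time in Nfu1. At least 3 copies were present in 3.37% of all windows and in 5.21% of those of tested genes. The upstream windows of Bola3 overlap and held the same 2 copies of CCAAT, and the window shown held none. Windows of Nfs1 and Lyrm4 held none of these letters. Neither CACGTG (7.15% of all windows, 9.84% for tested genes) nor TGATGNAA (3.97% and 2.43%) occurred in a window of any member. These are matches of letters and do not show binding.

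Values were signals on the log2 scale as deposited. Pairs of arrays from 1 group had a Pearson r of 0.989 to 0.992 across all 45281 probes, and pairs from the 2 groups 0.948 to 0.954. A background floor of 6.83 was set from the values, and between 35.9% and 36.0% of probes lay above it on each array. The Flvcr1 probe above the floor read 9.88 and 9.75 where the label is Flvcr deleted, against 8.16, 8.32 and 8.25 for wild type, so signal was higher where the label says deleted. Since the sources used here do not place that probe inside or outside the deleted part, it is no check of the labels, on which each direction given here rests. Of 15 erythroblast markers, 11 were measured, all of them above the floor on all 3 arrays labelled wild-type. Epb42 was not above the floor on 2 or more arrays, and the others were not analysed here.

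Of the 9 assembly genes, 3 fell in the arrays labelled Flvcr-deleted (Isca1, Glrx5 and Bola3), 1 rose (Nfu1), and 4 did not pass the test (Iscu, Nfs1, Hscb and Isca2). Lyrm4 was not above the floor on any array and was not tested. Over all 10076 genes tested, 39.3% had an adjusted p below 0.05 by limma with Benjamini-Hochberg adjustment (21.8% of all genes higher and 17.5% lower), so the 4 of 8 members past the threshold lie close to the background. The median log2 difference of the 8 tested members was -0.10, against 0.01 for all genes tested. Nfs1 and Iscu of the early steps, both measured above the floor on all arrays, had differences of 0.09 and -0.11, and Glrx5, Isca1 and Bola3, which act after them, had differences of -0.59, -1.45 and -0.45. Nfu1, which also acts late, had a difference of 0.36, and an order by step was not tested. Hscb, Isca2, Nfu1 and Lyrm4 were read near or under the floor. In bulk samples such as these, fewer cells of a type and less RNA per cell cannot be told apart.

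**Figure D1:**
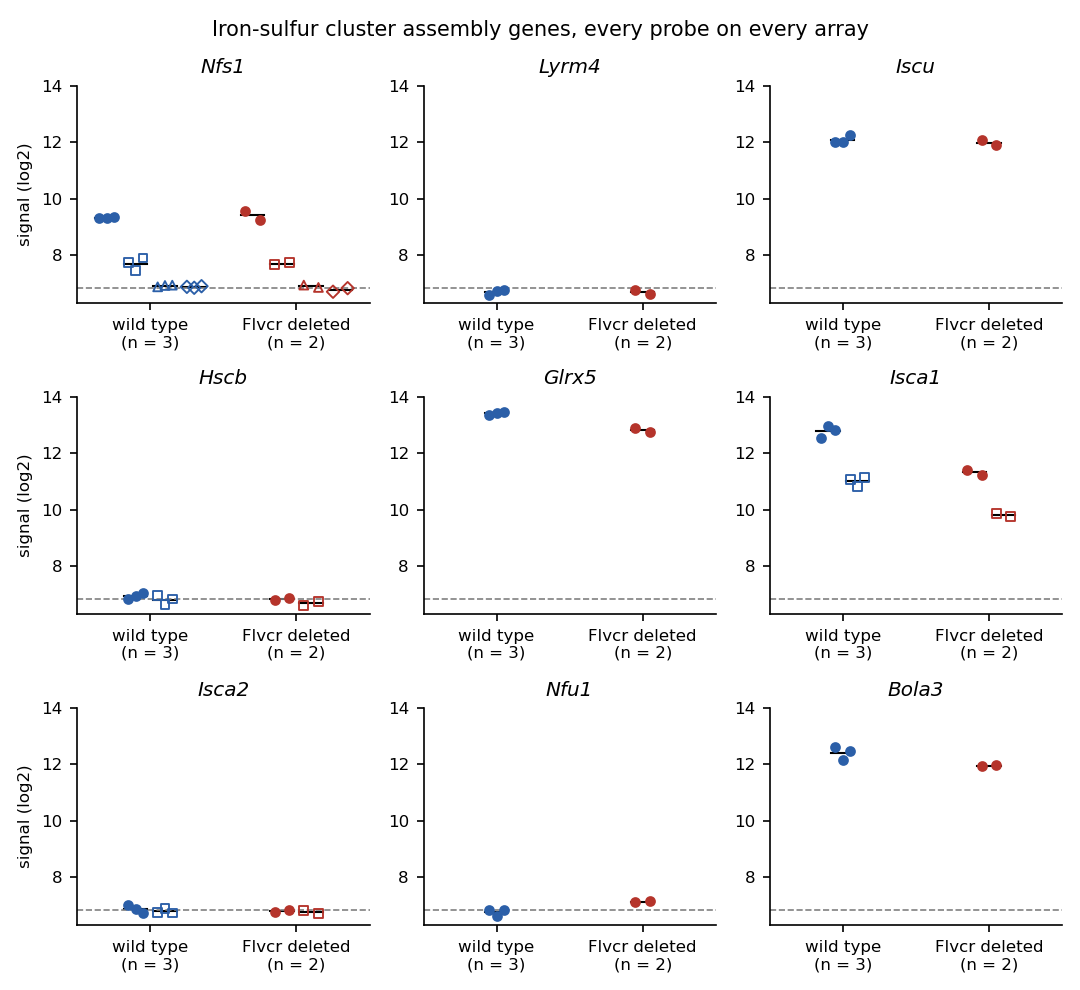
Log2 signal of every probe of the 9 assembly genes on each array, wild type in blue (n = 3) and Flvcr deleted in red (n = 2); filled symbols are the probe used for the gene (for Lyrm4, its only probe), open symbols the other probes, black bars the group means and the dashed line the background floor of 6.83. Isca1 is lower on both of its probes in the Flvcr-deleted arrays, while Lyrm4, Hscb and Isca2 lie at the floor.

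The desulfurase and scaffold showed no change past the threshold. Iscu, the scaffold on which the cluster forms, read 12.08 and 11.90 on the Flvcr-deleted arrays and 12.03, 12.01 and 12.25 on the wild-type arrays. The groups overlap, and the log2 difference was -0.11 (SE 0.12, 95% interval -0.37 to 0.16; limma, adjusted p = 0.536). Nfs1, the sulfur donor, read 9.58 and 9.24 against 9.32, 9.30 and 9.35 on its brightest probe. The 2 deleted arrays lie on either side of the wild-type arrays, with a difference of 0.09 (SE 0.12, interval -0.18 to 0.36; limma, adjusted p = 0.626). The other 3 Nfs1 probes differed by 0.01, -0.02 and -0.11, and none passed. The probe with -0.11 lay above the floor in the 3 wild-type arrays and at or under it in both deleted arrays. With the mean of its probes the sign of Nfs1 turned (-0.01), and it turned as well without Flvcr-deleted replicate 1 (-0.08).

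Lyrm4, the stabilising partner of NFS1, stayed between 6.57 and 6.76 on all 5 arrays, below the floor, so its level has no measured order. Hscb, the co-chaperone that recruits HSPA9 to the scaffold, read 6.81 and 6.87 against 6.83, 6.92 and 7.06 on its brighter probe, a difference of -0.09 (SE 0.11, interval -0.33 to 0.15; limma, adjusted p = 0.549). Its other probe read 6.61 and 6.75 against 6.96, 6.63 and 6.83. Both probes lay near the floor with overlapping groups, so differences of Hscb were not detectable with these probes.

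Glrx5, the glutaredoxin that carries the cluster from the scaffold to later factors, fell. It read 12.90 and 12.77 on the arrays labelled Flvcr deleted, against 13.37, 13.44 and 13.46 for wild type, means of 12.83 ± 0.09 (SD, n = 2) and 13.42 ± 0.05 (SD, n = 3). The groups do not overlap, and the gap between them is larger than the spread within either. The log2 difference was -0.59 (SE 0.10, interval -0.81 to -0.37), or 1.51-fold lower (limma, adjusted p = 0.00140). It had the 1118th lowest difference of the 10076 genes.

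Isca1 showed the largest difference of the 9 genes. ISCA1 is an A-type carrier that works with ISCA2 and IBA57 to make the 4-iron cluster. Its brighter probe read 11.42 and 11.24 on the deleted arrays, against 12.56, 12.95 and 12.83 on the wild-type arrays, means of 11.33 ± 0.13 (SD, n = 2) and 12.78 ± 0.20 (SD, n = 3). Every deleted array lay more than 1 log2 unit under every wild-type array. The difference was -1.45 (SE 0.13, interval -1.75 to -1.14), or 2.73-fold lower (limma, adjusted p = 5.86e-05), the 171st lowest of the 10076 genes. The other Isca1 probe read 9.86 and 9.77 against 11.07, 10.83 and 11.15. That separate probe gave -1.20 (SE 0.12, interval -1.47 to -0.94; limma, adjusted p = 8.74e-05 among all 17729 kept probes), of which 35.3% passed and 16.6% were lower; the 13 kept member probes included 4 that were lower and 1 that was higher. The interval of Isca1 does not overlap those of Iscu, Nfs1, Glrx5 or Bola3. Isca2, its partner, read 6.75 and 6.84 against 7.02, 6.89 and 6.72 on the probe that passed the filter, a difference of -0.08 (SE 0.11, interval -0.34 to 0.18; limma, adjusted p = 0.645). The other Isca2 probe was above the floor on 1 array, so differences of Isca2 were not detectable with these probes.

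**Figure D2:**
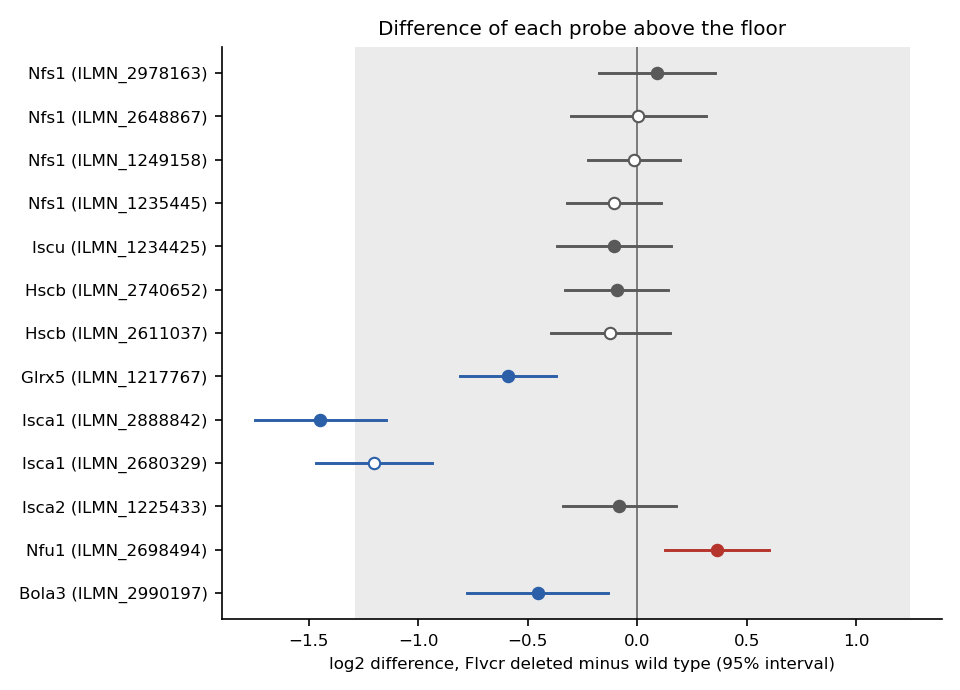
Log2 difference (Flvcr deleted minus wild type, n = 2 and 3) of each of the 13 member probes kept above the floor, with its 95% interval from limma fitted over all kept probes; filled points are the probe used for the gene, blue and red mark probes past an adjusted p of 0.05, and the grey band holds the middle 95% of all 10076 genes, -1.28 to 1.24. The brighter Isca1 probe, at -1.45, lies outside the band.

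The 2 delivery factors went opposite ways, and neither call was firm. Bola3, which helps NFU1 hand the cluster to lipoic acid synthase, read 11.93 and 11.98 on the deleted arrays, against 12.63, 12.14 and 12.46 on the wild-type arrays. Both deleted arrays lay under all wild-type arrays, with a difference of -0.45 (SE 0.14, interval -0.78 to -0.13), or 1.37-fold lower (limma, adjusted p = 0.0329). The call was lost without Flvcr-deleted replicate 1 (adjusted p = 0.120) or 2 (adjusted p = 0.0818) and without wild-type replicate 1 (adjusted p = 0.105) or 3 (adjusted p = 0.0749). It was also lost with no filter on dim probes (adjusted p = 0.0548), and over all alternatives its adjusted p ran from 0.00490 to 0.120.

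Nfu1, a cluster carrier with a pair of cysteines at its active site, read 7.11 and 7.14 on the deleted arrays, against 6.82, 6.62 and 6.83 on the wild-type arrays. Both deleted arrays were above the floor and 1 of 3 wild-type arrays was, so the dimmer group is mostly background. The difference was 0.36 (SE 0.11, interval 0.12 to 0.60; limma, adjusted p = 0.0230). With the dimmer arrays raised to the floor, the rise of the mean was at least 1.22-fold, with no allowance for the spread among arrays. It no longer passed without Flvcr-deleted replicate 1 (adjusted p = 0.0907) or 2 (adjusted p = 0.118) or without wild-type replicate 2 (adjusted p = 0.0571), and its adjusted p ran from 0.00281 to 0.118 over all alternatives.

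Whether the groups overlapped was a weak criterion on these arrays. The groups did not overlap for Isca1, Glrx5, Bola3 and Nfu1, 4 of the 8 members tested, and for 59% of all genes tested.

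The other mitochondrial factors of the pathway held genes called in both directions. Of 15 genes, 10 were measured, and 3 rose, 3 fell and 4 did not pass. The list's median difference was 0.16. The share called was 60% here and 40%, 35.7% and 50% in the lists that follow, against 39.3% of all genes tested. Calls both ways were common over all genes (21.8% higher, 17.5% lower), and the lists were not tested as sets. Hspa9, the chaperone that works with HSCB, rose from 11.63 ± 0.09 (SD, n = 3) to 13.30 ± 0.23 (SD, n = 2), a difference of 1.67 (SE 0.12; limma, adjusted p = 2.07e-05), and its other probe gave 1.87. Gfer, a sulfhydryl oxidase of the intermembrane space, rose by 0.93 (SE 0.10). Ndufab1, the acyl carrier protein that binds LYRM4 in the desulfurase complex, rose by 0.59 (SE 0.13; limma, adjusted p = 0.00566) on its brightest probe. Its other 3 probes ranged from -0.03 to 0.36, and the call was lost with the mean of its probes (0.32, adjusted p = 0.0522) and without Flvcr-deleted replicate 1 (adjusted p = 0.0630).

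Iba57, the partner of ISCA1 and ISCA2, fell from 10.01 ± 0.16 (SD, n = 3) to 8.85 ± 0.11 (SD, n = 2), a difference of -1.16 (SE 0.12; limma, adjusted p = 1.02e-04). Of the 3 genes of that step, Isca1 (-1.45) and Iba57 (-1.16) fell, and Isca2 lay near the floor. Slc25a37, the mitoferrin that brings iron into erythroid mitochondria, fell by 1.52 (SE 0.11), and Abcb10, the transporter that stabilises it, fell by 0.62 (SE 0.17) on its brightest probe and had -1.90 on its other probe. With the mean of its probes Abcb10 was at -1.26. Leaving out the first or second deleted array gave -1.87 and -1.93, and leaving out wild-type replicate 3 gave -2.22. In those fits the other probe became the brightest and was used, so these values reflect a change of probe. Slc25a28, the second mitoferrin, differed by -0.03, Fdx2, the ferredoxin that supplies electrons, by 0.09 near the floor, Grpel1, the exchange factor of HSPA9, by 0.23, and Bola1, a partner of GLRX5, by 0.38, and none of these passed (limma, adjusted p between 0.0660 and 0.907). Bola1 passed with the replicate block (0.45; limma, adjusted p = 0.00685), and its difference was 0.54 without Flvcr-deleted replicate 2. Fdx1 and Nubpl did not pass the filter on dim probes, and the other 3 genes of the list were not analysed here.

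The cytosolic branch builds clusters for cytosolic and nuclear proteins. Of its 11 genes 10 were measured, and 3 rose, 1 fell and 6 did not pass. The list's median difference was 0.07. On all wild-type arrays 7 of the 10 lay above the floor, and several that did not pass were read near it. Bola2 (0.81, SE 0.17), its partner glutaredoxin Glrx3 (0.56, SE 0.10) and the scaffold Nubp1 (0.58, SE 0.12) rose. Other probes gave 0.18 for Glrx3 and from 0.09 to 0.57 for Nubp1. Ciapin1, an electron carrier of the branch, fell by 0.34 (SE 0.12; limma, adjusted p = 0.0487), which was lost under 8 of 12 alternatives, including the mean of its 2 probes (-0.17, adjusted p = 0.143). Ndor1 was not analysed here.

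Among 14 measured proteins that carry clusters in mitochondria or take part in lipoylation, 3 rose, 2 fell and 9 did not pass; the list's median difference was 0.11. Fech, ferrochelatase, fell by 1.17 (SE 0.10), and its other probes gave -1.09 and -0.43. Mocs1, of molybdenum cofactor synthesis, fell by 1.13 (SE 0.12). Of the 6 measured subunits of respiratory complexes, 3 rose, by less than that: Sdhb of complex II by 0.46 (SE 0.11), and Ndufs8 and Ndufv2 of complex I by 0.44 (SE 0.10) and 0.42 (SE 0.10). Ndufs7 (0.12), Ndufv1 (0.09) and Uqcrfs1 (-0.01) did not pass (limma, adjusted p between 0.390 and 0.947). Uqcrfs1 had means of 6.79 on the deleted and 6.81 on the wild-type arrays, at the floor, so its differences were not detectable. Sdhb probes disagreed, with the others at -0.14 and 0.51. Without Flvcr-deleted replicate 1, Ndufs8 (adjusted p = 0.0623) and Ndufv2 (adjusted p = 0.122) did not pass, and without Flvcr-deleted replicate 2 Sdhb did not (adjusted p = 0.0629).

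Of 18 measured cytosolic and nuclear proteins with clusters, 6 rose, 3 fell and 9 did not pass. The list's median difference was 0.15, and 13 of the 18 lay above the floor on all wild-type arrays. The largest rises were Ppat, the amidotransferase that opens purine synthesis (1.10, SE 0.12), Elp3, of tRNA modification (1.05, SE 0.10), and Dph2 and Dph1 of diphthamide synthesis (1.02, SE 0.13, and 0.89, SE 0.10). Other Dph2 probes ran from 0.03 to 1.06. Those that fell were the repair helicase Brip1 (-0.77, SE 0.11), the primase subunit Prim2 (-0.54, SE 0.10) and the DNA polymerase subunit Pold1 (-0.51, SE 0.11). Among the other genes of DNA replication and repair in the list, the helicase Ercc2 rose (0.38, SE 0.11; limma, adjusted p = 0.0231), Pole, Rtel1, Nthl1, Mutyh and Ddx11 had differences between -0.13 and 0.16 and did not pass, and Dna2 did not pass the filter on dim probes.

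**Figure D3:**
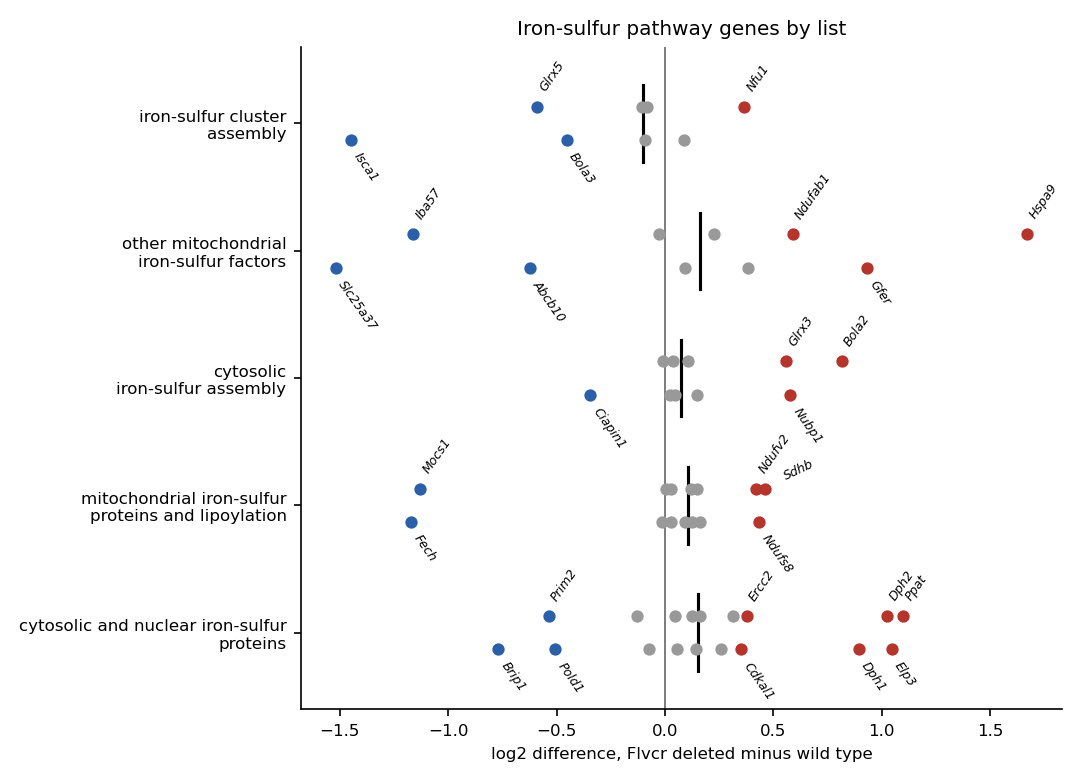
Log2 difference (Flvcr deleted minus wild type, n = 2 and 3) of each measured gene of the assembly genes and 4 related lists; red marks genes that rose, blue genes that fell, grey genes that did not pass, and black bars the list medians, which lie between -0.10 and 0.16. Each list holds genes on both sides, with Hspa9 (1.67) and Slc25a37 (-1.52) at the ends.

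Other measures moved in the same arrays. Of 11 measured erythroblast markers, 9 fell and none rose, with a median of -0.86, and their mean signal lay between 11.72 and 11.86 on the deleted arrays, against 12.55 to 12.75 on the wild-type arrays. Kel of the Kell blood group (-2.10, SE 0.18) and the ankyrin gene Ank1 (-1.27, SE 0.19) had the largest values. Other probes gave -0.50 for Ank1 and had the opposite sign for Gata1 (0.41, against -0.66) and Sptb (0.29, against -0.86). Of measured markers of other cells, 5 of 6 fell for mast cells, basophils and eosinophils and 5 of 14 for neutrophils. For B cells 3 of 4 fell, for macrophages and monocytes 2 of 10, and for T and NK cells 1 of 2. Of 3 megakaryocyte genes 1 fell and 1 rose. Over all genes tested 17.5% were lower and 21.8% higher, so the count for macrophages and monocytes lies close to that share. Some of these lists hold few genes, and none was tested as a set. Mean signals of the neutrophil markers were 8.19 to 8.27 on the deleted arrays against 9.17 to 9.94 on the wild-type arrays. Some single neutrophil genes varied far more than that mean between the deleted arrays, with SDs (n = 2) of 1.53 for Prtn3 and 1.45 for Elane. Their SDs on the wild-type arrays (n = 3) were 0.43 and 0.33. Others varied more among the wild-type arrays, such as S100a9 (SD 1.31, against 1.15 on the deleted arrays) and Lcn2 (0.84 against 0.39). Mean signals of the mast cell, basophil and eosinophil markers were 7.23 to 7.25 against 8.66 to 8.90. Those of the B cell markers were 6.74 to 6.81 against 7.46 to 7.83. For macrophages and monocytes they were 7.42 to 7.85 against 7.85 to 8.37, for T and NK cells 7.22 to 7.77 against 8.04 to 8.56, and for megakaryocytes 7.52 to 7.75 against 7.79 to 7.88. The largest called changes of each list, at most 2 a list, were Prg2 (-3.47) and Prss34 (-3.06) for mast cells, basophils and eosinophils, Prtn3 (-2.99) and Elane (-2.66) for neutrophils, Gp9 (-2.07) and Gp5 (1.42) for megakaryocytes and Nkg7 (-1.80) for T and NK cells. Cd3e, the only other measured T and NK cell gene, had 0.24 near the floor and did not pass (limma, adjusted p = 0.124). The lower mean signal of that list therefore rests on Nkg7. Lyz2 had -1.23 and F13a1 was at least 1.73-fold lower for macrophages and monocytes, and Cd79b was at least 2.51-fold and Cd74 at least 2.36-fold lower for B cells. Cd79b, Igll1, Mcpt8 and Vpreb1, which was not called, were above the floor on no deleted array and passed the filter through the wild-type arrays alone. Cd74, F13a1 and Epx were above the floor on 1 of 2 deleted arrays, and the B cell mean of the deleted arrays lies under the floor. No measured B cell gene was above the floor on both deleted arrays, so the filter itself favoured falls in that list. Prtn3 and Elane did not pass with a trended robust prior (adjusted p = 0.0734 and 0.0787), and without Flvcr-deleted replicate 2 they were at -1.90 and -1.63. Mmp8, Ms4a2, Ms4a1, Pax5, Ccr2, Cd3d, Cd3g, Cd8a, Klrb1c, Gp1bb, Pf4 and Ppbp were not above the floor on 2 or more arrays. The part of these cells in the differences of the assembly genes was not tested.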

How the data were processed

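Expression was measured on 5 Illumina bead arrays, grouped by title and genotype label. The log2 values used are those deposited by the authors; the sources used here do not give log base, software or normalization, and the values share 1 distribution (6.35 to 15.06), as quantile normalization gives. A deposited table of 10 columns of signals and detection p-values was not used, since its column names match no label. The floor of 6.83 lies 1.64 lower-side spreads (0.0824 each) above the peak of the signal distribution (6.70). Probes above it on at least 2 arrays were kept (17729, 15208 with a unique symbol), and each of 10076 genes took its kept probe of highest mean. Groups were compared in R 4.3.3 by limma 3.58.1 (lmFit, eBayes), two-sided, genotype as the only term (3 residual, 5.64 prior degrees of freedom), with Benjamini-Hochberg adjustment over all genes and calls under 0.05. Intervals are 95%. The number of arrays limits precision. The code was tested on simulated data. Folds understate changes of dim genes if the signals hold background. An at-least fold sets the brighter mean against the dimmer arrays raised to the floor, and makes no allowance for the spread among arrays.

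Symbols came from the platform annotation (34885 probes with 1 symbol, 18 with several, 10378 with none), and older names were matched through a RefSeq gene table. Members and lists were chosen with earlier results of these data known. Named are all members, all other mitochondrial factors, the 4 largest called changes each way in the other lists, the 2 largest per marker list, and Flvcr1. Ercc2, Pole, Rtel1, Nthl1, Mutyh, Ddx11, Dna2, Ndufs7, Ndufv1, Uqcrfs1, Gata1, Sptb, Igll1, Mcpt8 and Epx were named after their values were seen. So were Cd3e, S100a9, Lcn2, Vpreb1, Slc4a1 and Hba-a1. Promoter motifs and neighbouring genes were examined after the values were seen. Alternatives were normexp (offset 50), stricter and no filters, the mean of probes, single probes, centring, a trended robust prior, a replicate block and leaving out each array.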

Additional observations from a re-analysis of the deposited data

How the results depend on the processing

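Isca1 and Glrx5 kept their direction and their call under every alternative, with differences from -1.56 to -1.36 and from -0.66 to -0.52 when 1 array was left out. Leaving out 1 array moved Bola3 between -0.59 and -0.34 and Nfu1 between 0.30 and 0.40. With no filter on dim probes Bola3, at -0.45, missed the threshold. The sign of Nfs1, not called in any fit, was negative with the mean of its probes (-0.0072), and its difference ran from -0.0804 to 0.257 without 1 array. Slc25a28, not called either, ran from -0.133 to 0.0468 without 1 array and was at 0.0087 with the replicate block. The count of assembly genes called higher was 0 with the floor required on all 5 arrays, where Nfu1, Hscb and Isca2 were not tested, and from 0 to 1 when 1 array was left out, and the count called lower ran from 2 to 3. The cytosolic branch had 0 genes called lower with normexp, with no filter, with the mean of probes and with a trended robust prior, and from 0 to 1 without 1 array. Among mitochondrial cluster proteins from 1 to 3 genes were higher without 1 array, the 1 arising without Flvcr-deleted replicate 1. The other mitochondrial factors had from 2 to 4 genes higher without 1 array and 4 with the replicate block, under which Bola1 passed (0.45, adjusted p = 0.00685). Over all genes, 2199 were higher and 1763 lower, and these counts stayed between 1609 and 2334 and between 1383 and 1902. Whether replicate numbers pair the arrays was not settled. Deviations of same-numbered arrays correlated at r = -0.03 and 0.10. With 2 deleted arrays their deviations mirror each other, so these values cannot decide it. With the replicate block 2334 genes were higher and 1902 lower, with 1 assembly gene higher and 3 lower. Wild-type replicate 3 has no deleted partner in that block. For Isca1 the block gave -1.42, as did leaving out wild-type replicate 3. Signals near the floor limit what can be said of Lyrm4, Hscb, Isca2 and Nfu1.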

Other observations

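Several assembly genes share their promoter region with a gene read in the opposite direction. Of the 7 members with a RefSeq start, 5 had a start of another gene on the opposite strand within 1000 bases upstream, as did 19.4% of 8220 tested genes with a RefSeq start. This is a count over few genes and was not tested. Glrx5 lies 339 bases from Snhg10, a noncoding host gene of small nucleolar RNA, and both fell, Glrx5 at -0.59 and Snhg10 at -0.97 (SE 0.19; limma, adjusted p = 0.00302). Nfs1 lies 47 bases from Romo1, a small mitochondrial membrane protein, and the log2 differences were 0.09 and 0.22, neither past the threshold (limma, adjusted p = 0.184 for Romo1). Isca2 lies 158 bases from Npc2, a lysosomal cholesterol-binding protein with a difference of 0.17 (limma, adjusted p = 0.366). Lyrm4 lies 286 bases from Fars2, a mitochondrial phenylalanine-tRNA synthetase with a difference of 0.06 (limma, adjusted p = 0.691). The neighbour of Isca1, 177 bases away, is Etohd2, which was not analysed here.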
